A study of Mus musculus with 12 samples.

Results

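The genes described here are 10 genes of antigen presentation by the major histocompatibility complex (MHC), measured by RNA-seq in the ileal and colonic mucosa of mice that lack the metal ion transporter Slc39a8 in the intestinal epithelium and of their controls. They are the class II chain genes H2-Aa, H2-Ab1 and H2-Eb1, the class II chaperone and loading genes Cd74, H2-DMa and H2-DMb1, the class II transactivator gene Ciita, the class I heavy chain genes H2-K1 and H2-D1, and the class I light chain gene B2m. Each was found by its Ensembl identifier among 53715 genes, and all 10 were among the 16558 genes that passed the filter on low counts. The libraries came from 8-week-old male C57BL/6J mice, with 3 libraries in each of 4 groups (ileum control, ileum KO, colon control and colon KO) and 16749138 to 27903083 expected counts per library. KO mice carried Slc39a8-fl/fl with Villin-Cre, in which the Villin promoter drives Cre recombinase in intestinal epithelial cells and not in the immune cells of the mucosa. The control label reads Slc39a8-fl/fl, whereas the methods of the study describe controls as floxed, wild-type and Villin-Cre mice mixed together. None of the mice in these groups is given a treatment in the labels.

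MHC class I molecules sit on nearly all nucleated cells and show peptides from inside the cell to CD8+ T cells, while class II molecules show peptides taken up from outside to CD4+ T cells. Class II genes are expressed all the time in B cells, dendritic cells and many macrophages, and they are induced by interferon gamma in other cells, among them the enterocytes of the small intestine. Class II transcription depends on Ciita, which has no DNA-binding domain of its own and joins the RFX, CREB and NF-Y factors on a shared promoter module of X1, X2 and Y boxes, and B2m and the class I heavy chain genes are controlled in addition by its relative Nlrc5, by NF-kappa B and by interferon response elements.

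The promoters are shown for 3 class II members that hold X1 and Y cores in order and for both class I heavy chain genes. RefSeq promoter sequence (GRCm38.p6) was matched for 7 of the 10 genes, and the 200 bases before the start site are printed for 5 of them, 5′ to 3′ on the strand of the gene. In the first 3, which are class II genes, capitals mark the core of the X1 box (GNAAC), of the X2 box where present (TGACG) and of the Y box (GATTGG). In H2-K1 and H2-D1 capitals mark a kappa B element (GGGATTCCC) and a core of the interferon-stimulated response element (TTTCNNTTC).
H2-Aa, chr17:34287824-34288023, minus strand: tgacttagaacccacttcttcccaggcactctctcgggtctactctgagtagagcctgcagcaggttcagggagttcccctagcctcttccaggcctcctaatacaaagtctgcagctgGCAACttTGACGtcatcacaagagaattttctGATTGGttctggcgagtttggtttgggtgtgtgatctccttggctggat
H2-Eb1, chr17:34305667-34305866, plus strand: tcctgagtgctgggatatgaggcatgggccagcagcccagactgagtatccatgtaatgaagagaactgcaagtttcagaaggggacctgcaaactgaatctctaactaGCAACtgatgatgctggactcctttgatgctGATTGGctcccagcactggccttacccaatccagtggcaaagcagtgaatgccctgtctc
H2-DMb1, chr17:34152991-34153190, plus strand: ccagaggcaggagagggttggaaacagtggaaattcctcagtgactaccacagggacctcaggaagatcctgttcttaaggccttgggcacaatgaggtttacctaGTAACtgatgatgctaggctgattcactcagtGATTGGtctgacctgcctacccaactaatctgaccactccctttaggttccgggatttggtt
H2-K1, chr17:34000348-34000547, minus strand: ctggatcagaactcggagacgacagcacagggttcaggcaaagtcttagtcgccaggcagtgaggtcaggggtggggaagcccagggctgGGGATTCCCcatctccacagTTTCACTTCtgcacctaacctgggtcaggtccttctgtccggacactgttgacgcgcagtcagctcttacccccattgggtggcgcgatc
H2-D1, chr17:35262894-35263093, plus strand: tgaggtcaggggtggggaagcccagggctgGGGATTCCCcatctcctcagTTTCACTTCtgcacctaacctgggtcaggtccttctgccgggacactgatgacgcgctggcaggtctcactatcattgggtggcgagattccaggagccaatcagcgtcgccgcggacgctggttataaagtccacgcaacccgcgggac

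The X1 core began 81 bases upstream of the start site in H2-Aa, 91 in H2-Eb1 and 94 in H2-DMb1, and the Y core followed 32, 31 and 32 bases later. All searches covered both strands of the 250 bases before the start site. An X1 core followed within 60 bases by a Y core on the strand of the gene was present in 1.28% of 32851 promoters in the table, and B2m also held it, with the X1 core 113 bases upstream and the Y core 59 bases further on. H2-DMa, the other class II member with a matched promoter, held no such pair at either of its 2 listed start sites, with GNAAC matches at the one and a lone Y core at the other. TGACG alone was in 17.8% of promoters, GATTGG in 14.6% and GNAAC in 79.6%. In H2-Aa, TGACG was found on both strands in overlapping positions. GGGATTCCC was in 0.301% of promoters and TTTCNNTTC in 6.31%, and both stood in the same order in H2-K1 and H2-D1. The class I heavy chain promoters also held letters of the class II module, with TGACG 41 bases upstream in H2-K1 and 101 in H2-D1 and GATTGG on the opposite strand in H2-D1 and at the other listed start site of H2-K1. In both genes TTTCNNTTC overlapped a GNAAC match on the opposite strand. The GNAAC and TTTCNNTTC forms were added to the search after these promoters had been read, and every member searched held GNAAC. Of the forms planned before, the X1 core AGCAAC (12.2% of promoters) was found among the members only in H2-Eb1. The planned interferon response core TTCNNTTTC (7.13%) was found only in B2m. The planned gamma-activated site TTCNNNGAA (7.02%) was found in no member. A match of letters is a description of the sequence and not evidence of a bound site.

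The 4 groups were checked before the members were compared. Slc39a8 was 5.22 to 8.38 CPM (counts scaled to a library of 1000000) in ileum control against 2.62 to 4.35 CPM in ileum KO, and 20.04 to 20.8 CPM in colon control against 7.34 to 11.5 CPM in colon KO, with no overlap in either tissue. Over ileum and colon together the log2 fold change was -1.13 (SE 0.17), and the two-sided exact permutation test gave p = 0.005, although the adjusted p of edgeR over all genes was 0.38. Small intestinal enterocyte markers (5 genes) summed to 17308 to 22915 CPM in ileum and 1244 to 2269.96 CPM in colon, which follows the labels. The 4 colonocyte markers summed to 3092 CPM in ileum KO replicate 2 and to at most 634 CPM in the other 5 ileal libraries.

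Some libraries stood apart. Ileum control replicate 3 and ileum KO replicate 1 held 31.5 and 18.4 CPM over 5 smooth muscle genes, against 1668 to 2394 CPM in the other 4 ileal libraries. The same pair held 57.4 and 71.7 CPM over 8 B cell markers, against 4.59 to 9.75 CPM. They are called the muscle-poor libraries below, and each ileal group has 1 of them. Results are given with and without this pair, and also without colon KO replicate 3, which was singled out after its values were seen. That library held 26.8 CPM of the ileal bile acid-binding protein gene Fabp6 against 5.75 to 6.55 CPM in the other colonic libraries. The 5 small intestinal enterocyte markers, Fabp6 among them, summed to 1244 CPM there, below the 1406 to 2269.96 CPM of the other colonic libraries. Fabp2 and Slc10a2, with means of 662 and 734 CPM in colon KO, made up most of that sum in colon. Of the 5 markers, 2 were highest in colon KO replicate 3. Fabp6 there was 0.377% of its value in ileum KO replicate 3, and Cd74 was 19.1% of its value. The source of these transcripts was not tested.

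Within a library the class II members lay at very different levels, and these could be compared only after division by exon length. Per kilobase of exon in ileum control, Cd74, the invariant chain that occupies the class II groove during assembly, averaged 369.5 CPM. The mean was 143 CPM per kilobase for the alpha chain gene H2-Aa, 113 for the beta chain gene H2-Ab1 and 80.7 for the beta chain gene H2-Eb1. The DM heterodimer that exchanges peptides was lower, at 27.0 for H2-DMb1 and 6.38 for H2-DMa, and the regulator Ciita was at 1.80. The group means of class I were above these, with B2m at 2761, H2-K1 at 565 and H2-D1 at 486 CPM per kilobase in the same group. Neighbours in this order (H2-Aa and H2-Ab1, H2-K1 and H2-D1, H2-D1 and Cd74) differed by less than the SD over the 3 libraries, which was 113 CPM per kilobase for H2-Aa, 202 for H2-D1 and 265 for Cd74. In ileum KO replicate 3 Cd74 (928 CPM per kilobase) was above H2-K1 (786) and H2-D1 (738).

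H2-Aa (chr17:34282744-34287823, minus strand, GRCm38, as are the positions that follow) was 909.6, 648 and 71.5 CPM in ileum control (replicates 1 to 3) and 82.0, 938 and 1245 CPM in ileum KO. In colon it was 32.9, 32.5 and 27.8 CPM in control and 26.9, 35.0 and 141 CPM in KO. The 2 low ileal values belong to the muscle-poor libraries, and the high colonic value to colon KO replicate 3, so ileum and colon did not overlap in control mice and overlapped in KO mice.

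The beta chain genes repeated this order of libraries. H2-Ab1 (chr17:34257689-34269419, plus strand) was 355, 459 and 61.01 CPM in ileum control and 107, 474 and 786 CPM in ileum KO, with 44.1, 27.6 and 31.3 CPM in colon control and 17.1, 34.5 and 138 CPM in colon KO. H2-Eb1 (chr17:34305867-34316674, plus strand) was 191, 237 and 42.2 CPM, then 48.3, 266 and 379.8 CPM in ileum, and 19.6, 17.4 and 17.9 CPM, then 10.8, 18.2 and 67.7 CPM in colon, in the same order of groups. The second alpha chain gene of the locus, listed as H2-Ea-ps because C57BL/6 mice carry a disrupted copy, was at 0 counts in all 12 libraries, which allows up to 3 counts in a library, so that H2-Eb1 transcripts were found without those of its alpha partner.

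Cd74 (chr18:60803848-60812652, plus strand) was 794, 953 and 115 CPM in ileum control and 198, 928 and 1559 CPM in ileum KO. In colon it was 45.2, 33.7 and 40.7 CPM in control and 22.03, 42.9 and 297 CPM in KO. The single library of colon KO replicate 3 thus held 8.05 times the mean of the other 5 colonic libraries. Relative to H2-Ab1 per kilobase, Cd74 was 2.84 to 3.42 in the 6 ileal libraries, the muscle-poor pair included, 1.57 to 1.99 in 5 colonic libraries and 3.29 in colon KO replicate 3.

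**Figure D1:**
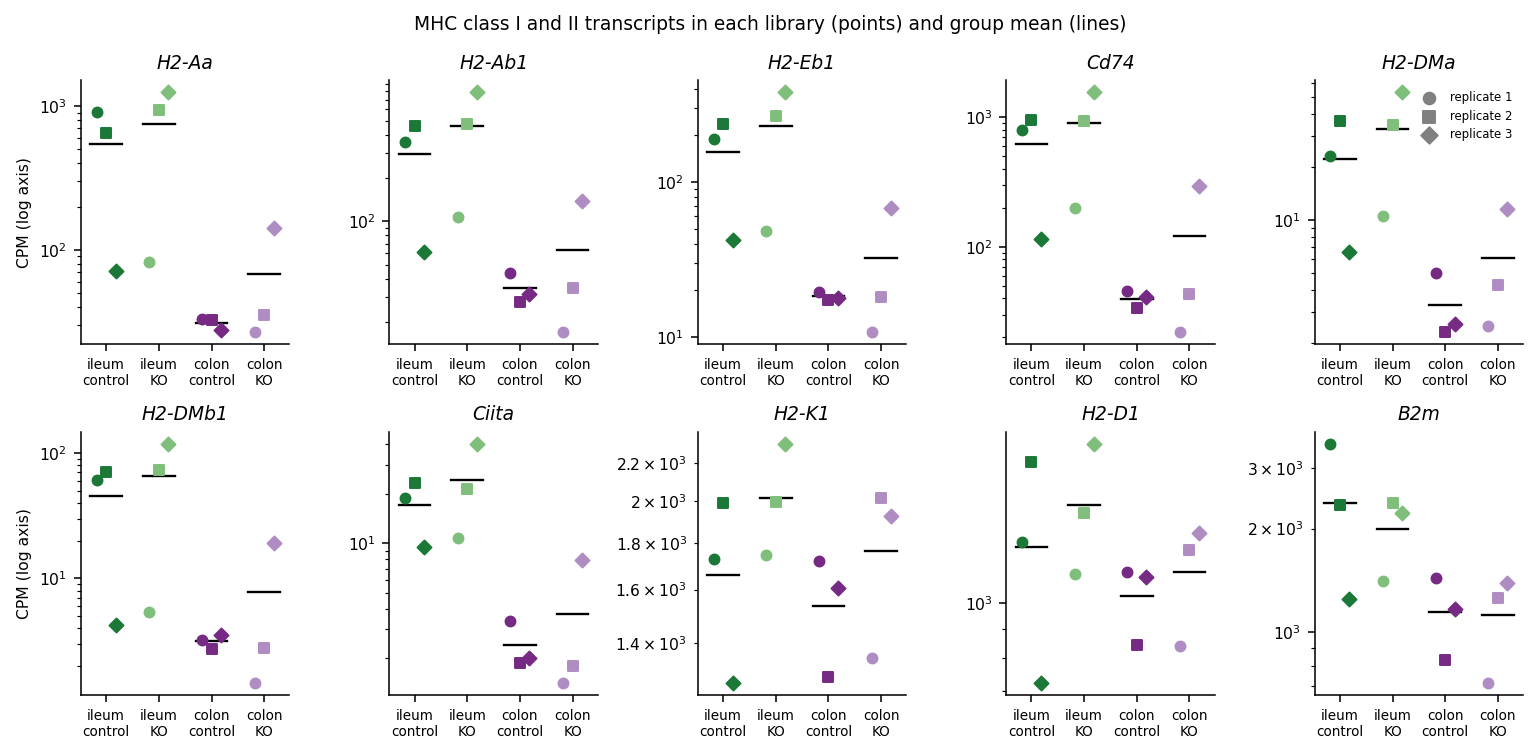
CPM of each of the 10 genes (1 panel each, log axis) in the 4 groups, with points for the 3 libraries of a group and a line for their mean. In the 7 class II panels the same ileal libraries (control replicate 3 and KO replicate 1) lie lowest in ileum and colon KO replicate 3 lies highest in colon, while H2-K1 stays between 1264 and 2310.0 CPM in all 12 libraries.

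The peptide exchange genes followed. H2-DMb1 (chr17:34153072-34160230, plus strand) was 60.6, 71.1 and 4.25 CPM in ileum control, 5.42, 73.7 and 119 CPM in ileum KO, 3.22, 2.73 and 3.53 CPM in colon control and 1.46, 2.79 and 19.2 CPM in colon KO. H2-DMa (chr17:34119541-34139101, plus strand) was 23.1, 36.4 and 6.54 CPM, 10.5, 34.7 and 53.0 CPM, 4.96, 2.30 and 2.54 CPM, and 2.495, 4.24 and 11.4 CPM in the same groups. Among the members, H2-DMb1 showed the widest gap inside ileum, 16.8 times higher in the mean of the other 4 libraries than in the muscle-poor pair. Of its 75-base windows, 15.8% also occur in the neighbouring copy H2-DMb2, and 7.46% of those of H2-DMa lie in the overlapping gene Brd2, so how reads were divided there is uncertain.

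Ciita (chr16:10480059-10528418, plus strand), the transactivator, was 18.8, 23.3 and 9.43 CPM in ileum control and 10.7, 21.4 and 40.1 CPM in ileum KO. In colon it was 3.38, 1.87 and 2.02 CPM in control and 1.41, 1.81 and 7.88 CPM in KO. It was the member whose ileal and colonic libraries did not overlap in either genotype, and its gap inside ileum (2.57 times) was smaller than those of the 6 other class II genes, which were 4.30 to 16.8 times.

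The class I genes were far more even. H2-K1 (chr17:33996017-34000347, minus strand), a classical heavy chain, was 1727, 1992 and 1264 CPM in ileum control and 1745, 1997 and 2310.0 CPM in ileum KO, against 1718, 1285 and 1608 CPM and 1346, 2013 and 1927 CPM in the colon of control and KO mice. H2-D1 (chr17:35262730-35267499, plus strand), the other classical heavy chain of this strain, ranged from 722 to 1903 CPM in ileum and from 838 to 1327 CPM in colon. B2m (chr2:122147686-122153083, plus strand) was 3526, 2347 and 1252 CPM in ileum control, 1407, 2369 and 2224 CPM in ileum KO, 1437, 831 and 1169 CPM in colon control and 711, 1259 and 1386 CPM in colon KO. Groups overlapped throughout for H2-K1 and H2-D1, and for B2m the tissues separated in KO mice alone. Of the 75-base windows of H2-K1 and H2-D1, 3.1% and 5.56% also occur in other genes, mostly non-classical class I genes.

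Ileum against colon was the first comparison, and it was made in control and in KO mice. The libraries compared differed between the genotypes, but both edgeR results came from the same model of the 4 groups. The edgeR results in control and in KO mice are therefore not independent of each other. All 7 class II genes were lower in colon in both genotypes, by 6.73 to 17.5 times in control mice and 5.399 to 11.2 times in KO mice as ratios of mean CPM. H2-Aa and Cd74 showed the widest differences in control mice (17.5 and 15.6 times), and H2-DMa the narrowest. Of the class I genes only B2m passed the main edgeR test, in control mice. Its log2 fold change was -1.05 in control and -0.84 in KO mice, and in KO mice it passed in 7 of 22 alternative fits.

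In control mice, edgeR's quasi-likelihood test called 8 of the 10 genes lower in colon at an adjusted p under 0.1, and none higher, against 19.6% of all genes tested that were called lower and 16.2% called higher. The log2 fold change, colon over ileum, was -4.13 for H2-Aa (SE 1.08, edgeR adjusted p = 0.015), -3.96 for Cd74 (SE 1.09, adjusted p = 0.019) and -2.82 for Ciita (SE 0.68, adjusted p = 0.0098). It was -1.05 for B2m (SE 0.38, adjusted p = 0.061), and the other 4 class II genes lay between -3.84 for H2-DMb1 and -2.75 for H2-DMa. H2-K1 (-0.11, 95% interval -0.60 to 0.37) and H2-D1 (-0.29, -0.97 to 0.40) did not pass. The median of the 10 genes was -2.95 beside 0.016 for all genes. The direction of the many calls depended on the scaling, with 2689 genes higher and 3251 lower with TMM factors, 3373 and 2741 with upper-quartile factors, and 4155 and 2102 with library size alone, which placed the median of all genes at 0.24. Under each of these scalings 8 of the 10 genes were called lower. H2-K1 turned to 0.12 with library size alone.

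In KO mice, 7 of the 10 genes were called lower in colon, the 7 class II genes, against 20% of all genes called lower and 17.1% called higher. The log2 fold change was -3.48 for H2-Aa (SE 1.05, edgeR adjusted p = 0.028), -2.89 for Cd74 (SE 1.03, adjusted p = 0.056) and -2.69 for Ciita (SE 0.67, adjusted p = 0.011). B2m was at -0.84 (SE 0.38, adjusted p = 0.12), H2-D1 at -0.39 and H2-K1 at -0.20. This count rested on single libraries, since it was 1 (Ciita) without colon KO replicate 2, 3 without ileum KO replicate 3 and 4 without colon KO replicate 1, although the log2 fold change of all 7 class II genes stayed at -1.90 or below in each alternative tried. In control mice the count was 6 without colon control replicate 2 or replicate 3.

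**Figure D2:**
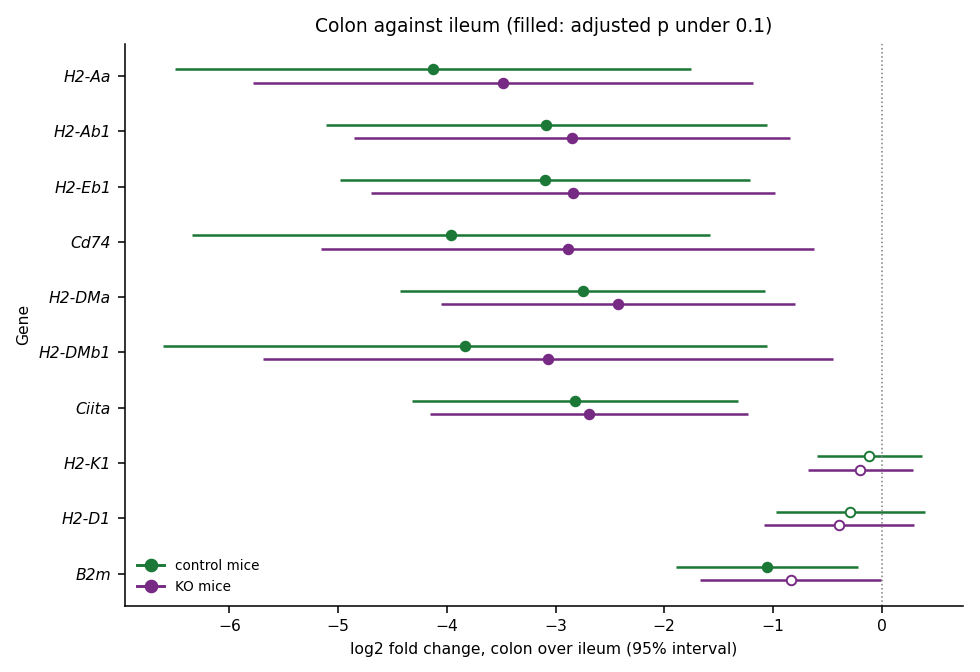
Log2 fold change of colon over ileum for each gene (x axis) in control and in KO mice, with 95% intervals from edgeR and filled points for an adjusted p under 0.1. The 7 class II genes lie between -4.13 and -2.43 with intervals below 0, and H2-K1 and H2-D1 lie within 0.40 of 0 with intervals that include it.

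Without the 2 muscle-poor ileal libraries, 9 of the 10 genes were called lower in colon in both genotypes, and H2-K1 alone was not. The shares of 19.6% and 20% of all genes belong to the fit of all 12 libraries, and none is given here for the fit without this pair. H2-Aa was then at -4.67 (SE 0.57, edgeR adjusted p = 7.0e-05) and Cd74 at -4.47 (SE 0.82, adjusted p = 0.0014) in control mice, B2m was at -1.38 and -1.03 in control and KO mice, and H2-D1 was at -0.58 (adjusted p = 0.083) and -0.55 (adjusted p = 0.097). A second test of each gene exchanged the tissues within each genotype, as an exact, two-sided permutation of log2 of CPM plus 0.5 (400 arrangements, smallest possible p 0.005, not adjusted over the 10 genes). This exact test gave p = 0.005 for Ciita, 0.01 for H2-Aa, H2-Ab1, H2-Eb1, H2-DMa and Cd74, 0.025 for H2-DMb1, 0.02 for B2m, 0.265 for H2-D1 and 0.33 for H2-K1. In 1 genotype alone, 3 libraries against 3 allow no exact p below 0.1. The labels do not say whether a mouse gave both tissues, and the tests took the libraries as independent.

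In bulk libraries such as these, fewer cells of a type and less RNA per cell cannot be told apart. The cell type markers moved with the class II genes to differing degrees. The 11 dendritic cell and macrophage markers, none of them at 0 in all 12 libraries, summed to 91.0 to 203 CPM in ileum control and 113 to 132 CPM in colon control, and to 88.7 to 189 and 73.9 to 182 CPM in ileum and colon KO. Of these 11, 2 were called lower and 1 higher in the colon of control mice, with a median log2 fold change of -0.73. The sum of H2-Aa, H2-Ab1, H2-Eb1 and Cd74 divided by this marker sum was 3.18 to 20.99 in ileum and 0.844 to 1.17 in 5 colonic libraries, with 3.53 in colon KO replicate 3. Among 7 tested B cell markers 2 were called lower (median -2.79). The 7 T cell markers had 6 members called lower (median -2.13), the 5 plasma cell markers 2 (median -1.15), and the 7 epithelial markers all 7 (median -1.05). In KO mice 3 of 11 dendritic cell and macrophage markers, 2 of 7 B cell, 5 of 7 T cell, 2 of 5 plasma cell and 7 of 7 epithelial markers were called lower. Of all genes 19.6% were called lower in control and 20% in KO mice, and the counts of dendritic cell and macrophage markers (2 and 3 of 11) lay near these shares. The part of each cell type in the tissue difference was not tested.

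**Figure D3:**
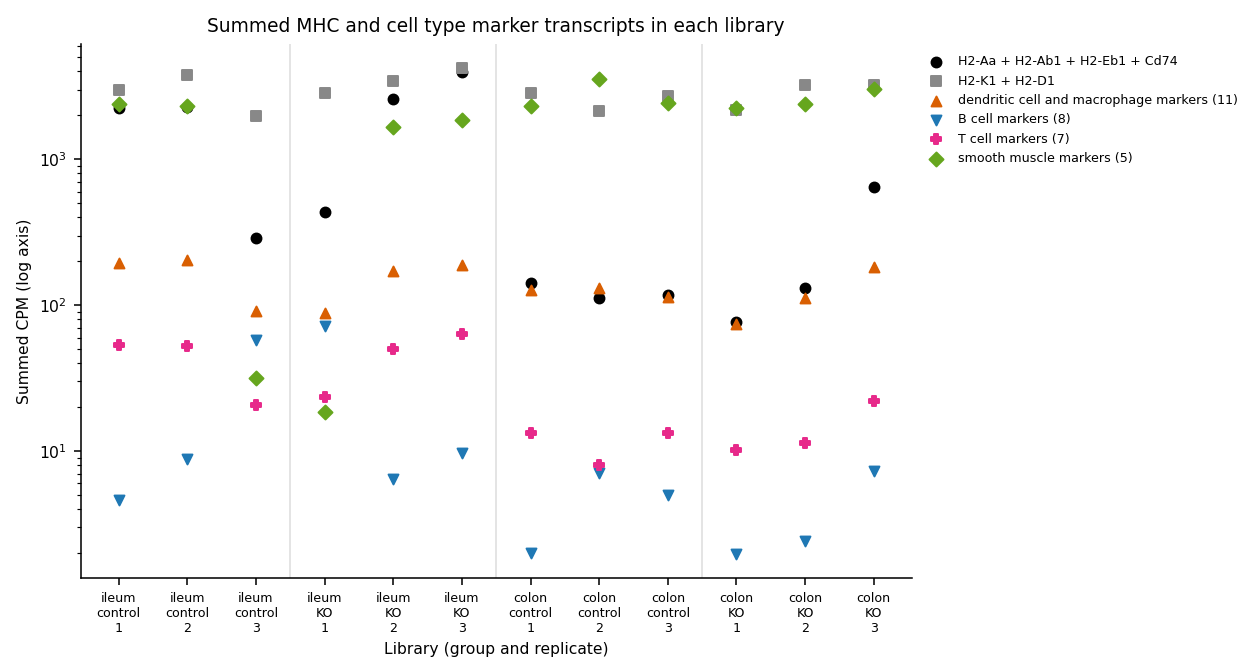
Summed CPM (log axis) of 4 class II transcripts, of H2-K1 and H2-D1, and of 4 marker lists in each of the 12 libraries, arranged by group and replicate. In ileum control replicate 3 and ileum KO replicate 1 the class II sum is 290 and 435 CPM against 2249 to 3969 CPM in the other ileal libraries, muscle, T cell and dendritic cell and macrophage markers are also lower, and B cell markers are higher.

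The spread inside ileum was of the same order as the tissue difference, 12.2 times for H2-Aa between the other ileal libraries and the muscle-poor pair beside 17.5 times between tissues in control mice. Both muscle-poor libraries lay below the other 4 ileal libraries for 9 of the 10 genes, H2-K1 excepted, beside 27.2% of all genes tested, and above them for none of the 10, beside 23.2%. This pair was chosen by muscle transcripts and holds 1 library of each genotype, so the values are a description and carry no test. The class II sum was 290 and 435 CPM in the pair and 2249, 2296, 2605 and 3969 CPM in the others. Dendritic cell and macrophage markers summed to 88.7 and 91.0 CPM in the pair against 171 to 203 CPM, and T cell markers to 20.8 and 23.5 CPM against 49.98 to 63.4 CPM. Epithelial markers differed little, with 16759 and 18054 CPM against 18682 to 21611 CPM.

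In ileum the libraries richest in B cell transcripts, a cell type that expresses class II genes, had the least of the main class II genes. The same libraries were also lower in T cell and in dendritic cell and macrophage markers, and the part of each cell type was not tested. Of 13 tested class II genes beyond the members, 5 were higher in both muscle-poor libraries than in the other 4 ileal libraries, opposite to H2-Aa, and 2 were lower. Of all genes tested 23.2% were higher in this way and 27.2% lower. The genes that follow are among the 5 and were named after their values had been seen. H2-Ob, the beta chain of the DO heterodimer that holds DM in check, was 8.11 and 10.5 CPM in the pair and 0.665 to 1.70 CPM in the others, and its partner H2-Oa was 2.46 and 2.14 CPM against 0.332 to 0.852 CPM. H2-Eb2 was 2.72 and 4.23 CPM against 0.142 to 0.777 CPM, and H2-DMb2 was 4.08 and 4.05 CPM against 0.399 to 1.48 CPM. H2-DMb1 and H2-DMb2, neighbouring copies of 1 gene, therefore ran in opposite directions across the ileal libraries, 4.25 and 5.42 CPM against 60.6 to 119 CPM for H2-DMb1.

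Colon KO replicate 3 lay above the other 5 colonic libraries for 8 of the 10 genes, all except H2-K1 and B2m, beside 18.6% of all genes tested. This library was singled out after its values were seen, so the count is a description and carries no test. The class II sum was 644 CPM there and 76.8 to 142 CPM in the other 5. Its class I heavy chain sum (3254 CPM) was level with the highest of the others (3249 CPM). Dendritic cell and macrophage markers summed to 182 CPM against 73.9 to 132 CPM, T cell markers to 22.1 CPM against 8.01 to 13.4 CPM, and plasma cell markers to 1039 CPM against 495 to 622 CPM. B cell markers were at 7.26 CPM against 1.98 to 7.09 CPM.

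The other genes of the pathway were described by 5 lists. Of 13 tested class II genes beyond the members, 5 were lower and 1 higher in the colon of control mice, with a median log2 fold change of -0.53. Of all genes 19.6% were called lower and 16.2% higher. H2-Oa (-2.81, SE 1.04, edgeR adjusted p = 0.065), H2-DMb2 (-2.19, SE 0.82, adjusted p = 0.066) and March1, a ubiquitin ligase that removes class II from the cell surface (-1.37, SE 0.34, adjusted p = 0.010), had the largest falls among the 5 called genes. Ctsl, a lysosomal protease of antigen processing, rose by 1.72 (SE 0.19, adjusted p = 4.6e-05). H2-Oa rested on few counts, with 0 to 8 in colon control. For H2-Oa and H2-DMb2 the highest ileum control value was that of muscle-poor replicate 3 (2.46 and 4.08 CPM). Their lowest ileum control values, 0.332 and 0.399 CPM, lay inside the ranges of colon control (0 to 0.383 and 0.288 to 0.659 CPM). In KO mice 3 of the 13 were lower, near the 20% of all genes called lower, and 1 was higher, Ctsl at 1.79, beside 17.1% of all genes. The subunits of the RFX complex that recruits Ciita did not pass in either genotype and were named after their values had been seen, with Rfx5 at 0.38 and 0.14, Rfxank at 0.16 and 0.36 and Rfxap at -0.28 and 0.060 in control and KO mice. Rfx5 was called higher in control mice, and Rfxank in KO mice, with upper-quartile factors or library size alone.

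Genes that process and load peptides for class I were lower in colon in part. Of 14 tested, 5 fell and none rose in control mice (median -0.74), beside 19.6% of all genes called lower and 16.2% higher. In KO mice 9 fell and none rose (median -0.90), beside 20% and 17.1% of all genes. The chaperones Calr (-1.34, SE 0.25, edgeR adjusted p = 0.0019) and Canx (-1.17, SE 0.11, adjusted p = 2.1e-05) and the proteasome activator subunit Psme1 (-0.87, SE 0.24, adjusted p = 0.017) led in control mice. Nlrc5, the class I transactivator, did not pass and was named after its values had been seen, with -1.69 in control mice (95% interval -3.46 to 0.082) and -1.56 in KO mice (-3.31 to 0.19). The KO count was 4 with upper-quartile factors or library size alone.

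Of 18 tested non-classical class I genes, 1 fell and 3 rose in control mice (median -0.076), and 3 fell and 2 rose in KO mice, with shares near or under those of all genes (19.6% lower and 16.2% higher in control mice, 20% and 17.1% in KO mice). H2-Bl fell by 1.21 on the log2 scale (SE 0.29, edgeR adjusted p = 0.0089). H2-Q10 rose by 1.08 (SE 0.30, adjusted p = 0.020), Cd1d1, which presents lipids, by 0.96 (SE 0.35, adjusted p = 0.059), and Hfe, a regulator of iron uptake, by 0.88 (SE 0.27, adjusted p = 0.031). Members of this family share sequence, so their separate values are uncertain. Their median was positive with upper-quartile factors (0.025) and with library size alone (0.14).

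Of 13 tested interferon gamma signalling genes, 6 fell and none rose in control mice (median -0.98), beside 19.6% of all genes called lower. In KO mice 3 fell and none rose (median -0.70), near the 20% of all genes called lower. The T cell-attracting chemokine genes Cxcl9 (-2.72, SE 0.87, edgeR adjusted p = 0.038) and Cxcl10 (-2.13, SE 0.76, adjusted p = 0.057) and the transcription factor gene Irf8 (-1.06, SE 0.32, adjusted p = 0.029) fell in control mice, and 1 further gene that fell was below 1 CPM in all 4 groups. In KO mice Cxcl9 (-1.69) and Cxcl10 (-0.70) did not pass, and with library size alone 1 gene of the list was called. None of 4 tested co-stimulation genes was called in either genotype by edgeR, with 2 and 0 of the 4 at an unadjusted p under 0.05.

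**Figure D4:**
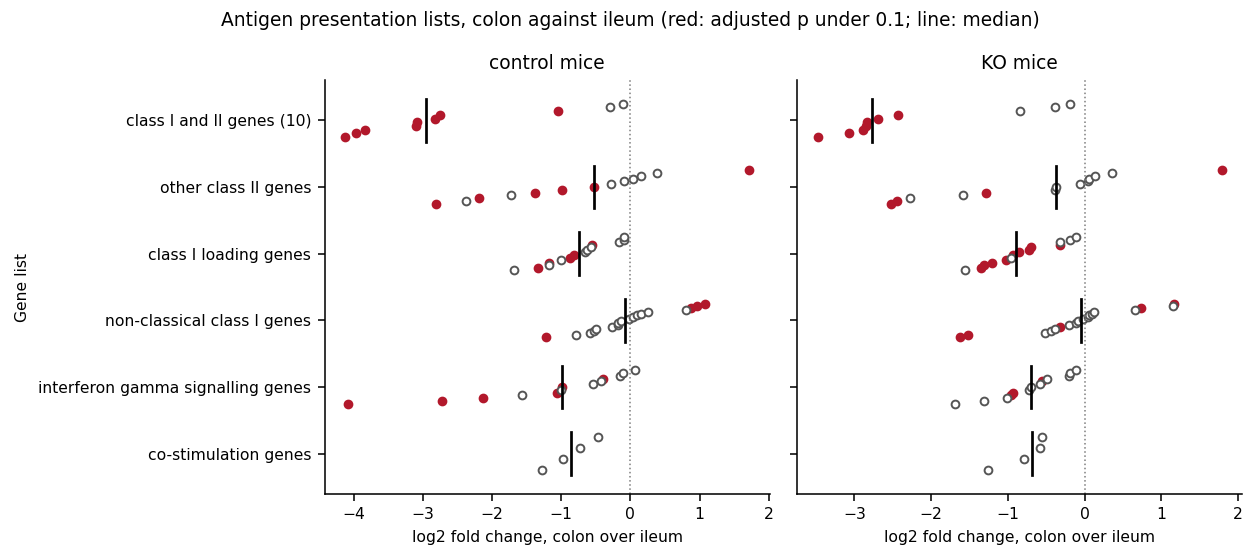
Log2 fold change of colon over ileum (x axis) for the 10 genes and for each gene of the 5 pathway lists (rows), in control mice and in KO mice, with red points for an adjusted p under 0.1 and a line at the median of each list. The median of the 10 genes is -2.95 and -2.77, and the list medians lie between -0.98 and -0.053.

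Loss of Slc39a8 in the epithelium was the second comparison. No member was called between genotypes. The class II genes were higher in the mean of KO libraries in both tissues, by amounts below the SD of the KO libraries. In colon these amounts were above the SD of the control libraries, and the KO mean and SD rested on colon KO replicate 3. Cd74 was 22.03 and 42.9 CPM in colon KO replicates 1 and 2, against 33.7 to 45.2 CPM in colon control. For Cd74 the mean was 895 ± 681 CPM in ileum KO against 620.4 ± 445 CPM in ileum control, and 121 ± 153 CPM in colon KO against 39.9 ± 5.81 CPM in colon control (SD, n = 3 libraries in each group). B2m had a mean of 1999.8 ± 519 CPM in ileum KO and 2375 ± 1137 CPM in ileum control, and 1119 ± 359 and 1146 ± 304 CPM in colon. The groups overlapped for all 10 genes in both tissues.

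Over both tissues, edgeR called 0 of the 10 genes and 0% of all genes tested, and 0 of the 10 were at an unadjusted p under 0.05, by edgeR, DESeq2 or limma-voom. Over all genes edgeR gave 642 at an unadjusted p under 0.05, DESeq2 called 4 and limma-voom 1. The log2 fold change, KO over control, was 1.06 for Cd74 (95% interval -0.43 to 2.55), 0.80 for H2-Aa (-0.63 to 2.23), 0.56 for Ciita (-0.39 to 1.497), 0.24 for H2-K1 (-0.09 to 0.56) and -0.14 for B2m (-0.70 to 0.42), each with an edgeR adjusted p of 0.998. The exact permutation test that exchanged genotypes within tissue gave two-sided p = 0.405 for Cd74, 0.55 for Ciita, 0.15 for H2-K1 and 0.73 for B2m. The upper bounds for the 7 class II genes lay between 1.497 (Ciita) and 2.60 (H2-DMb1), while the bound for H2-K1 was 0.56.

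Within tissues the counts were the same. In ileum edgeR called 0 of the 10 genes (0% of all genes), with Cd74 at 0.53 (95% interval -1.59 to 2.64) and H2-K1 at 0.28 (-0.21 to 0.77). In colon it also called 0 (0% of all genes), with Cd74 at 1.60 (-0.58 to 3.77), Ciita at 0.62 (-0.84 to 2.09) and H2-K1 at 0.20 (-0.29 to 0.68). The colonic values rested on colon KO replicate 3, without which Cd74 was at -0.28, Ciita at -0.57, H2-DMb1 at -0.56, H2-Ab1 at -0.40 and H2-Eb1 at -0.32, so that 5 of the 7 class II genes changed direction. The genotype effect in colon minus that in ileum was called for 0 of the 10 genes (0% of all genes) and was 1.07 for Cd74 (-1.93 to 4.07) and 0.13 for Ciita (-1.85 to 2.11). In each of these 3 comparisons 0 of the 10 genes were at an unadjusted p under 0.05 by edgeR, DESeq2 or limma-voom. Over all genes edgeR gave 252, 385 and 169 such genes in ileum, in colon and for the difference, DESeq2 called 2, 0 and 1, and limma-voom 1, 0 and 0. These genotype comparisons share libraries with the one over both tissues.

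**Figure D5:**
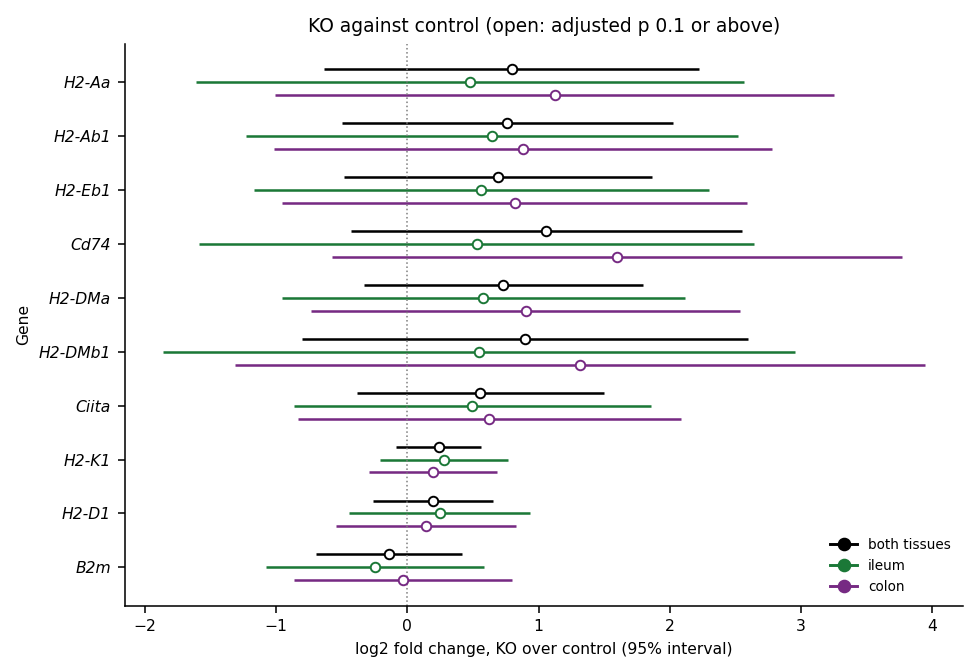
Log2 fold change of KO over control (x axis) for each gene over both tissues, in ileum and in colon, with 95% intervals from edgeR and open points because no adjusted p was under 0.1. All 30 intervals include 0, and those of H2-K1, H2-D1 and B2m are the narrowest.

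Without the muscle-poor pair the genotype difference over both tissues was 1.16 for Cd74 (95% interval -0.026 to 2.35) and 0.87 for H2-Aa (0.065 to 1.67), with edgeR adjusted p of 0.52 and 0.48, and without colon KO replicate 3 it was 0.17 for Cd74 and 0.27 for H2-Aa. No pathway gene was called between genotypes in any of the 4 comparisons by edgeR, DESeq2 or limma-voom. Of 62 tested by edgeR, none was at an unadjusted p under 0.05 either. Over both tissues DESeq2 gave 2 such genes (Canx and H2-Q10) of 66 and limma-voom 1 (H2-Q10) of 62, and in colon each gave 1 (Canx by DESeq2, H2-Q10 by limma-voom).

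The members were compared with other genes by the correlation of log2 CPM, as deviations from the tissue mean, over the 12 libraries. These libraries share the differences in cell makeup given above, and the values are a description. With the mean of H2-Aa, H2-Ab1, H2-Eb1 and Cd74, Pearson's r was 0.99 for H2-DMb1, 0.96 for H2-DMa, 0.93 for Ciita, 0.85 for H2-D1 and 0.76 for H2-K1 and B2m. Among 10562 genes at a mean of at least 5 CPM, the 5 non-members most like this mean were Tgtp2 (r = 0.97) and its near-identical copy Tgtp1 (0.96), both interferon-induced GTPases, Gimap4 (0.96), a GTPase of lymphocytes, the complement gene C1qb of macrophages (0.95) and Apol7c (0.94), with Spearman's rho of 0.85 to 0.95. Without the 2 libraries farthest from the median, ileum control replicate 3 and colon KO replicate 3, these were 0.91 to 0.96. The 5 genes most like the mean of H2-K1, H2-D1 and B2m were the interferon-induced Gbp8 (r = 0.96), the cytotoxic granule protease gene Gzmb (0.96), the uridine phosphorylase gene Upp1 (0.95), Srgn, the core protein of granule proteoglycans (0.95), and Grina (0.95), with rho of 0.79 to 0.94, and without colon KO replicate 1 and ileum control replicate 3 they were 0.89 to 0.95.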

How the data were processed

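The 12 libraries (oligo-dT primed RNA of ileal or colonic mucosa) were grouped by tissue, genotype and replicate from the labels. The authors deposited 1 table of expected counts, which are estimates of reads per gene, not normalized, 93.7% of them whole. The submitters' processing notes name STAR, and the Reporting Summary names mm10, a Gencode annotation, uniquely mapped reads, UMI-tools and FeatureCounts. The tool behind the expected counts and its strand setting are not given in the sources used here. Of 53807 lines of the table, 92 were spike-in sequences at 0 in all libraries and were left out. Identifiers were matched without their version to GENCODE M21 (53620 of 53715).

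Expected counts were rounded. edgeR 4.0.16 (R 4.3.3) with filterByExpr over the 4 groups, TMM factors and the quasi-likelihood test gave p-values adjusted by Benjamini-Hochberg over 16558 genes, with a threshold of 0.1. Genotype over both tissues had tissue as a second term, and the other comparisons came from a model of the 4 groups. CPM uses TMM-scaled library sizes. Alternatives were DESeq2 1.42.0, limma-voom (limma 3.58.1), other scalings, no filter, a threshold of 0.05, a replicate block and libraries left out. The edgeR fit was tested on simulated data. For genotype over both tissues it recovered 57% of 2-fold and 89% of 4-fold changes, with 7.59% of calls false. For colon against ileum in control mice it recovered 27% and 73%, with 3.85% of calls false. Changes of 2-fold could thus often go uncalled.

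All 10 members are named. Of the pathway lists, genes called between genotypes (up to 10) and the 3 largest rises and falls between tissues in control mice are named, leaving out genes under 1 CPM in all 4 groups except H2-Ea-ps. The likeness rule names 5 genes per class. The members, lists, markers and tests were chosen with earlier results of these data known. Mice are the replicates per the study's methods.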

Additional observations from a re-analysis of the deposited data

How the results depend on the processing

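No member was called between genotypes under any alternative (4 comparisons). The count of members lower in the colon of control mice, reported as 8, was 6 to 9 under 23 alternatives. In KO mice it was 7, and 8 with DESeq2, 6 with limma-voom, 5 at a threshold of 0.05, 9 without the 2 muscle-poor ileal libraries and 1 to 8 with 1 library left out, with 1 without colon KO replicate 2, 3 without ileum KO replicate 3 and 4 without colon KO replicate 1. With the replicate block the counts were 7 and 7. The shares of all genes called under these alternatives are not given beside the counts. Over all pairs of groups, deviations from the group means correlated over 0.1 in 6 of 18 same-numbered pairs (-0.73 to 0.38). A library correlated best with its own number in 14 of 36 cases. Only ileum and colon of 1 genotype could share a mouse. Same-numbered correlations between them were -0.017, 0.17 and -0.063 in control mice. In KO mice they were 0.22, 0.077 and 0.297, against -0.24 to 0.051 for different numbers. Whether same-numbered tissues came from 1 mouse is therefore not settled by these values. The block changed the sign of Cd74 (0.53 to -0.045) and of H2-DMb1 (to -0.20) between genotypes in ileum, and over both tissues it moved Cd74 from 1.06 to 0.46 and H2-DMb1 from 0.90 to 0.29.

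Direction also changed elsewhere, and in colon for 5 of the 7 class II genes without colon KO replicate 3 (H2-Ab1 -0.40, H2-Eb1 -0.32, H2-DMb1 -0.56, Cd74 and Ciita). With 1 library left out, Cd74 between genotypes ranged from -0.14 (without ileum KO replicate 3) to 1.004 in ileum and from -0.28 (without colon KO replicate 3) to 2.07 in colon, and Ciita, with the same libraries at the low end, from -0.086 to 0.85 and from -0.57 to 0.99. B2m over both tissues ranged from -0.26 to 0.049 (without ileum control replicate 1). Between tissues in control mice H2-K1 was -0.29 without the muscle-poor pair, 0.038 without ileum control replicate 2 and 0.0015 without colon control replicate 2. H2-D1 ranged from -0.58 (without the muscle-poor pair) to 0.038 (without ileum control replicate 2). H2-K1 was 0.12 in control and 0.087 in KO mice with library size alone. B2m in control mice no longer passed in 6 alternatives (edgeR adjusted p = 0.11 with the block), H2-DMb1 in 4, and H2-DMb1 in KO mice in 7. B2m in KO mice, which did not pass in the main fit, passed in 7 of 22 alternatives. An alternative chosen after seeing the data left out the muscle-poor pair and colon KO replicate 3 together, which removes by construction the library highest in class II transcripts in colon. It gave 9 members lower in colon in both genotypes, with no share of all genes given beside that count, and Cd74 and Ciita between genotypes in colon at -0.28 and -0.57. The cause of these changes was not tested.

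Counts of the pathway lists lower in the colon of control mice ranged from 1 to 6 for other class II genes (5 as reported), 4 to 11 for class I loading genes (5), 1 to 4 for non-classical class I genes (1), 2 to 9 for interferon gamma signalling genes (6) and 0 to 3 for co-stimulation genes (0). In KO mice the ranges were 1 to 4 (3), 4 to 10 (9), 1 to 6 (3), 1 to 9 (3) and 0 to 2 (0). The shares of all genes called under the same alternatives are not given beside these ranges, which therefore cannot be read as particular to the lists. Of all genes, 3251 were called lower in control mice with TMM factors, 2741 with upper-quartile factors and 2102 with library size alone. Depth limits the low genes, such as H2-Oa with 0 to 8 counts in colon control.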
